A study of Macaca mulatta with 2 samples.

Results

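The interferon-stimulated genes are a set of 35 named genes, and 34 of them had a row among the 35432 genes of the data by their symbol. IFIH1, an RNA sensor, had no row under its name and was not analysed here. All 34 members had UMIs, the molecule counts of the assay, in the cells studied. The cells were circulating CD4+CD8+ double-positive (DP) T cells of 1 untreated rhesus monkey (Macaca mulatta), an animal of 6 years, whose blood cells were enriched on beads for CD4 and then for CD8. A 5′ RNA library and a library of antibody tags against CD4 and CD8 came from the same cells, so there was 1 sample and no treated group. Of 7923 barcodes, 7601 cells passed the limits on genes and mitochondrial UMIs, and 7311 of these (96.2%) had at least 1 UMI of CD3E, a chain of the T cell receptor complex. These CD3E+ cells had a median of 3656 UMIs with quartiles of 3001 and 4720. Another 86 kept cells lacked UMIs of the CD3 genes but held 3 or more of B cell genes, with a median depth of 4137.5 UMIs. They are called B gene cells here. The cells of 1 sample are not replicates, so no difference was tested, and every interval covers counting error only.

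Interferons are secreted proteins that cells release on meeting a virus. They bind receptors whose Janus kinases phosphorylate transcription factors, and a complex that holds STAT2 and IRF9 binds a promoter element, the interferon-stimulated response element (ISRE), of genes that block viral entry, RNA replication, translation and budding. Interferon gamma, which T cells themselves make, acts mainly on another element, the gamma-activated site (GAS), and many of these genes are also expressed at a base level without interferon.

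The promoters were read to show which members carry these elements. In the 300 bases upstream of the start of 1 RefSeq transcript per gene on Mmul_10, the ISRE core GAAANNGAAA was searched on both strands. It was found at 14 of the 35 members (40.0%), against 762 of 20787 protein-coding genes (3.67%). The GAS letters TTCNNNGAA, which read the same on both strands, were found at 8 members (22.9%), against 7.09% of all genes. Matches may overlap each other, and a match is a description of letters, not of a bound site. For some members, such as MX1, MX2, EIF2AK2 and TRIM22, the transcript start used lies inside the annotated gene span. Their windows are therefore not upstream of the gene, and other starts were not searched. Of the members with a core upstream of their annotated gene span, the stretch around the core nearest the start is shown for the 7 whose level differed by 1.5-fold or more between GZMB+ and GZMB- cells below, and for SAMD9, the neighbour of SAMD9L. Each is written 5′ to 3′ on the strand of the gene, with every ISRE core inside the printed stretch in capitals, and TTTC letters mark a core on the opposite strand.
ISG15: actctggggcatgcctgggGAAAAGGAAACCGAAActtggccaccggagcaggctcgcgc
IFIT2: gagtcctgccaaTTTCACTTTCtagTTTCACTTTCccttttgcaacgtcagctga
IFI6: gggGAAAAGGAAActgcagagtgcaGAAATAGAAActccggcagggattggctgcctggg
BST2: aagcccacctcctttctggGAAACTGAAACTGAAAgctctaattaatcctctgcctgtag
SAMD9L: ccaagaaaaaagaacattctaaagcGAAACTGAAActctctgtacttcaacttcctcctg
SAMD9: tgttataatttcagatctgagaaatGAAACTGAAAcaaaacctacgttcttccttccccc
RSAD2: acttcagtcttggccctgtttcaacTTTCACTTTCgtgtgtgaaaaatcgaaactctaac
PLSCR1: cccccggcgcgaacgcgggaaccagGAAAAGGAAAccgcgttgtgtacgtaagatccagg
The ISG15 stretch lies at chr1:223405151-223405210 on the minus strand and holds overlapping cores. The IFIT2 stretch, at chr9:89563405-89563459 on the plus strand, holds a pair of cores and ends at the base before the start site. The IFI6 stretch, which shows 2 of the 4 cores in its window, is chr1:197051513-197051572 (plus strand) and the BST2 stretch chr19:16907685-16907744 (minus strand). SAMD9L (chr3:112975946-112976005) and SAMD9 (chr3:113006932-113006991) are neighbours on the plus strand. RSAD2 (chr13:101901790-101901849) and PLSCR1 (chr2:48668763-48668822) lie on the minus strand. All 8 stretches lie outside the annotated span of their own gene, upstream of its start.

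Summed over the 34 members, the CD3E+ cells held 61917 UMIs, which is 2056 CPM (UMIs per 1000000 gene UMIs of these cells; 95% exact Poisson interval 2040 to 2072) or 0.206% of their RNA molecules. The share in a single cell had a median of 0.185%, with quartiles of 0.115% and 0.278%. The 95th percentile was 0.477%, the 99th 0.753% and the highest cell 2.27%. The median cell thus held a low but measurable amount, and a thin upper tail held several times more. The 73 cells of the highest 1% by share held 3.92% of all member UMIs.

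A median of 5 members had a UMI in a cell (quartiles 3 and 7). Only 93 cells (1.27%) had none, and their median depth was 2825 UMIs. To compare cells at 1 depth, each of the 6935 CD3E+ cells with enough UMIs was thinned to 2000 UMIs, and the 376 shallower cells were left out. After thinning, the median was 3 members, the 99th percentile was 9, the maximum was 18, and 369 cells (5.32%) had none. The B gene cells had a summed level of 2023 CPM (1885 to 2168), close to that of the CD3E+ cells. No cell class in this sort is known to lack these genes, so their background from free RNA was not measured.

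A few members made up most of the sum. IFI6, IRF1 and ISG20 held 42.9% of the member UMIs, BST2 brought this to 51.4%, and the 9 members with most UMIs held 78.8%. In the 5′ assay each molecule is counted once, so CPM has no term for gene length, though genes may differ in how well they are captured. Of the 34 members, 12 are called wide here, since at least 10% of CD3E+ cells had a UMI of them, and the other 22 are called sparse.

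The ISG15 conjugation genes together held 188 CPM (183 to 193). ISG15, a ubiquitin-like protein that is linked to other proteins or secreted, had 989 UMIs, 32.8 CPM and a UMI in 9.59% of cells. UBE2L6, the enzyme that carries ISG15 to its ligase, was more abundant at 128 CPM and was found in 38.6% of cells. HERC6 (19.1 CPM, 6.98% of cells) and HERC5 (7.80 CPM, 2.90% of cells), ligases of this pathway, were sparse. Most ISG15+ cells had 1 UMI (562 of 701), but 22 had 5 or more, 5 had 10 or more, and the highest had 17.

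The IFIT family, whose proteins bind foreign RNA ends, had the lowest summed level of the groups at 37.7 CPM (35.5 to 39.9). IFIT2 had 11.8 CPM, IFIT5 11.5, IFIT3 8.37 and IFIT1 6.01. The intervals of IFIT2 (10.6 to 13.1) and IFIT5 (10.3 to 12.8) overlapped, so their order was not resolved. A single cell held 11 of the 181 IFIT1 UMIs.

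Among the RNA enzymes and sensors (82.6 CPM in all), EIF2AK2, the kinase PKR that stops translation on double-stranded RNA, led with 33.0 CPM. OAS2 had 19.6, OAS1 13.7, OAS3 13.1 and OASL 3.19 CPM. OAS1, OAS2 and OAS3 make the messenger that switches on RNase L, and OASL lacks that activity. OAS1 and OAS3 differed by less than their counting intervals. The dynamin-like GTPases MX1 and MX2, which trap viral nucleocapsids, had 22.9 and 29.4 CPM.

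The transcription factors held 507 CPM (499 to 515). IRF1, a factor induced by interferon gamma, had 315 CPM (309 to 321) and was found in 58.8% of cells. IRF9, a DNA-binding partner of STAT2, had 134 CPM, STAT2 31.5 CPM, and IRF7, which drives interferon alpha genes, 26.4 CPM. IRF7 reached 21 UMIs in 1 cell. The ADP-ribosylation genes were each below 50 CPM. PARP14 had 43.5, DTX3L 24.0 and PARP9, the partner of DTX3L, 18.7 CPM.

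The restriction factors and other members held 1103 CPM (1091 to 1115), or 53.6% of the sum. IFI6, a small membrane protein that protects cells from death and from flaviviruses, had 323 CPM (317 to 330) and 53.5% of cells. ISG20, an RNA exonuclease, had 245 CPM and the largest share of cells in this group at 56.1%. BST2, which tethers budding virions to the membrane, had 175 CPM, and SP100, a component of nuclear bodies, 162 CPM. TRIM22, a ubiquitin ligase, had 89.2 and IFI35 50.04 CPM. The others were below 22 CPM, from SAMD9 at 21.9 through SAMD9L (18.2), XAF1 (8.40), IFI44 (5.25) and RSAD2 (4.02) to PLSCR1 at 1.26 CPM, with 38 UMIs in all.

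**Figure D1:**
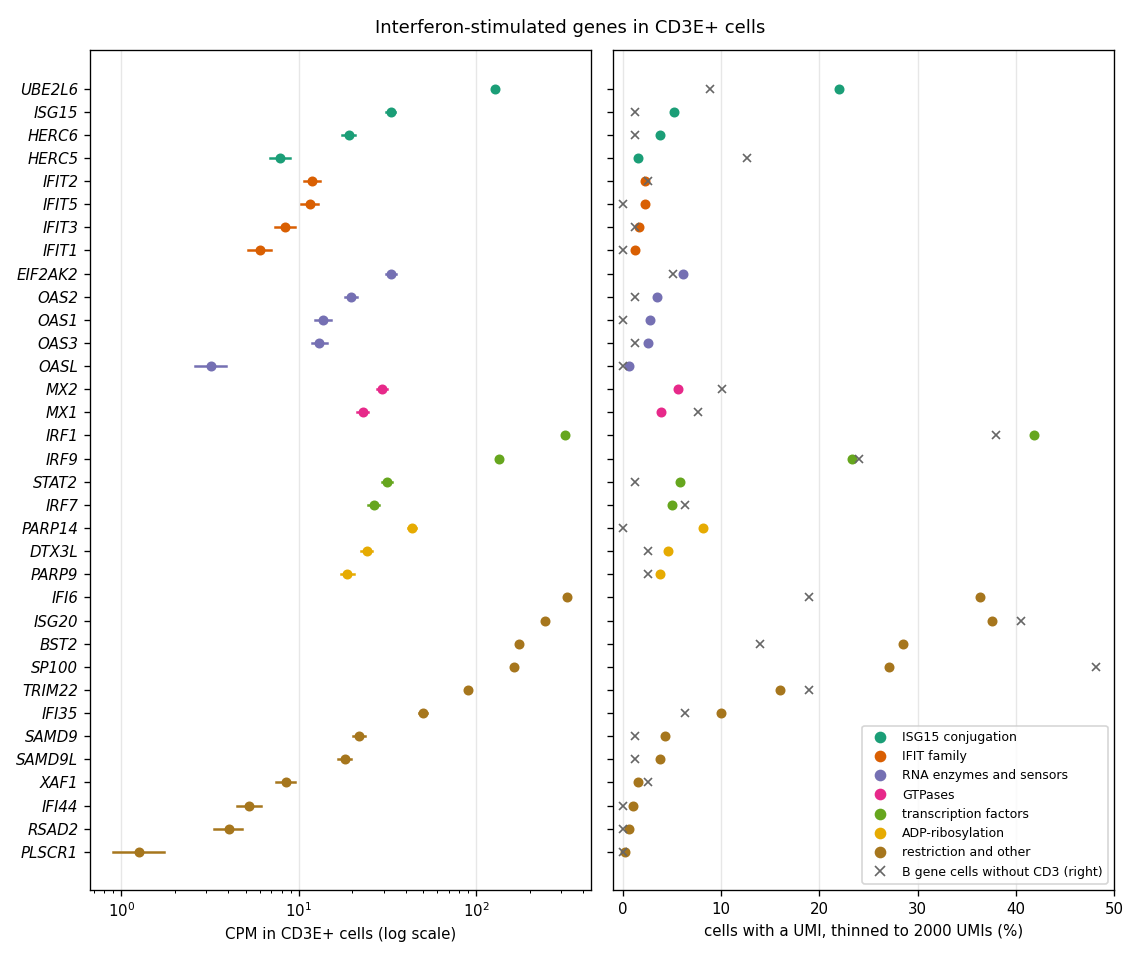
Left, CPM of each member in the 7311 CD3E+ cells on a log axis with its exact Poisson interval. Right, the percent of cells with a UMI after thinning to 2000 UMIs, as coloured points for CD3E+ cells and crosses for B gene cells without CD3, with members coloured by role. IFI6, IRF1 and ISG20 lead on both scales, PLSCR1 is lowest, and HERC5 and SP100 are found in a larger share of the B gene cells.

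Members also differed in how unevenly they were spread over cells. In thinned cells the variance of a gene's UMIs divided by its mean is near 1 when molecules fall at random, and its median over the 8802 genes with at least 50 thinned UMIs was 1.01. Of the 31 members with that many UMIs, 6 exceeded 1.2 (5.04% of all such genes did) and 3 exceeded 1.5 (2.81% of all). IFI6 stood highest at 2.56, followed by IRF1 at 1.60, ISG15 at 1.53, MX1 at 1.35 and IFIT1 and IRF7 at 1.22. The IFI6 UMIs were thus concentrated: 113 cells had 10 or more, and the highest had 41. Before thinning, 1 cell held 11 of the 181 IFIT1 UMIs and 1 cell 21 of the 795 IRF7 UMIs. The ratios of IFIT1 and IRF7 without these cells were not taken. The summed member count of thinned cells had a ratio of 2.43, around a mean of 4.22 UMIs.

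The summed level was then compared between cells with and without a UMI of 6 genes that mark T cell states. GZMB encodes granzyme B, a killing protease of cytotoxic cells. The 3273 GZMB+ cells had a summed level of 2589 CPM (2561 to 2617), and the 4038 GZMB- cells had 1672 CPM (1653 to 1692). The log2 ratio was 0.63 (0.61 to 0.65). At equal depth a GZMB+ cell held a mean of 5.31 member UMIs and a GZMB- cell 3.34. GZMB was found in 44.8% of CD3E+ cells and in 8.14% of the B gene cells, which should lack it, with median depths of 3656 and 4137.5 UMIs. By raw GZMB UMIs the level was 2100 CPM in the 321 cells with 1 UMI, 2541 in the 526 cells with 2 to 4, and 2661 in the 2426 cells with 5 or more. The level was thus higher in each step of GZMB UMIs. The intervals of these 4 levels did not overlap, but they cover counting error and not the spread between cells.

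All 34 members had enough UMIs for the GZMB comparison, meaning at least 10 expected in the smaller group. Of these, 11 (32.4%) were at least 1.5-fold higher in GZMB+ cells, where 18.8% of all 11047 genes tested were. Another 3 (8.82%) were at least 1.5-fold lower, where 10.8% of all genes were. The median log2 ratio was 0.41 for the members and 0.19 for all genes tested. The interval of the ratio lay above 0 for 24 members and below 0 for 5, counts that have no share over all genes beside them.

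MX2 had the largest ratio, with 45.5 CPM in GZMB+ and 17.8 in GZMB- cells (log2 1.35, 1.15 to 1.55). IFIT1 followed with 8.97 against 3.88 CPM (log2 1.21, 0.76 to 1.66). IRF1 had 445 against 221 CPM (log2 1.01), BST2 245 against 124 (0.98), IFI6 439 against 239 (0.88) and ISG15 44.7 against 24.3 (0.88). The highest ratios thus fell on a GTPase, an IFIT protein, a transcription factor, membrane proteins and a ubiquitin-like protein rather than on a single role. SAMD9L (0.72), SP100 (0.71), IRF7 (0.69), IFIT2 (0.65) and OAS2 (0.63) were the other members past 1.5-fold.

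Relatives of these genes had ratios in the opposite direction. MX1, the paralogue of MX2, had 18.7 CPM in GZMB+ and 25.9 in GZMB- cells (log2 -0.47, -0.70 to -0.24). IFIT5, of the same family as IFIT1, had 8.57 against 13.6 CPM (log2 -0.67, -1.01 to -0.33). SAMD9, the neighbour of SAMD9L, had 21.3 against 22.3 CPM, an interval that included 0. Members within the GTPase, IFIT and SAMD9 groups therefore did not move together between these cells. RSAD2, a radical enzyme that makes a chain terminator of viral RNA, had 2.86 against 4.85 CPM (log2 -0.77), and PLSCR1, a membrane scramblase, had 9 against 29 UMIs (log2 -1.21, -2.48 to -0.10).

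By role, the transcription factors had the largest ratio, with 670.5 CPM in GZMB+ and 389 CPM in GZMB- cells (log2 0.79, 0.74 to 0.83). This ratio rests largely on IRF1 (log2 1.01), which held 9488 of their 15261 UMIs. IRF7 had 0.69, IRF9 0.43 and STAT2 0.17 (-0.02 to 0.35). The restriction factors followed (log2 0.66), then the GTPases (0.55), the ADP-ribosylation genes (0.46), the RNA enzymes (0.38), the ISG15 conjugation genes (0.32) and the IFIT family (0.30). The intervals of the last 3 overlapped. An ISRE core stood in the window of 6 of the 11 members that were at least 1.5-fold higher, of 2 of the 3 that were lower and of 6 of the other 20, so the element occurred on both sides. MX2, counted as without a core, had its window inside its gene span, so these counts depend on the transcript starts used.

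CPM depends on what else a cell holds. Ribosomal protein genes took 24.2% of the UMIs of GZMB+ cells and 32.5% of those of GZMB- cells. Scaled to the UMIs outside ribosomal protein and mitochondrial genes, a choice made after seeing the data, every GZMB ratio shifted by -0.18 on the log2 scale. The summed ratio was then 0.45, and 6 members (17.6%) were higher and 4 (11.8%) lower, the added one being MX1, against 11.98% and 14.9% of all genes tested at that scaling. The part of ribosomal protein genes in the member ratios was not otherwise tested.

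Marker lists of other cell types also differed between these cells. NK cell genes (4 of 4 listed with a row) had 158 CPM in GZMB+ and 12.96 in GZMB- cells, with NCAM1 at 0 in the former. Plasmacytoid dendritic cell genes (4 of 5) had 15.7 against 4.80 CPM with CLEC4C at 0 in both, and monocyte genes 8.81 against 3.66 CPM with VCAN and FCN1 at 0 in both. B cell genes had 67.8 against 72.9 CPM, and red blood cell genes 0.238 against 152 CPM. Without the 17 cells with 3 or more UMIs of plasmacytoid dendritic cell genes the GZMB ratio was 0.63, as with them, and without cells with 3 or more UMIs of B cell genes it was 0.64. The part of the NK, monocyte and red blood cell lists was not tested.

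CCR7, a receptor that guides naive and central memory T cells into lymph nodes, gave the opposite picture. The 2163 CCR7+ cells had 1608 CPM (1584 to 1633) and the 5148 CCR7- cells 2301 CPM (2280 to 2323), a log2 ratio of -0.52 (-0.54 to -0.49). The level did not fall further with more CCR7 UMIs: it was 1596 CPM at 1 UMI, 1616 at 2 to 4 and 1638 (1544 to 1737) at 5 or more, with overlapping intervals. CCR7 was found in 29.6% of CD3E+ cells and in 18.6% of the B gene cells, a class that also uses this receptor.

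Of the 34 members, 1 (2.94%) was at least 1.5-fold higher in CCR7+ cells, where 8.01% of all 10794 genes tested were, and 11 (32.4%) were lower, where 14.0% of all genes were. The median log2 ratio was -0.43 for the members and -0.15 for all genes. MX2 again led, with 16.1 CPM in CCR7+ and 36.7 in CCR7- cells (log2 -1.19, -1.44 to -0.95). IFIT1 (-1.04), BST2 (-0.90), SAMD9L (-0.83), ISG15 (-0.79), IFI6 (-0.75), IRF1 (-0.74), IFIT3 (-0.72), OASL (-0.72), IRF7 (-0.62) and OAS1 (-0.61) were the other members past 1.5-fold. The member at least 1.5-fold higher was PLSCR1, with 20 UMIs in CCR7+ and 18 in CCR7- cells, or 1.88 against 0.925 CPM (log2 1.02, 0.03 to 2.02). Higher by less were RSAD2 (log2 0.56, 0.01 to 1.10), HERC6 (0.27, 0.02 to 0.51) and IFIT5 (0.28, -0.04 to 0.59). MX1 had nearly equal levels of 22.4 and 23.1 CPM (log2 -0.04, -0.28 to 0.19). With the scaling outside ribosomal protein and mitochondrial genes each CCR7 ratio shifted by 0.15, the summed ratio was -0.37, and 2 members (5.88%) were higher and 7 (20.6%) lower, against 10.7% and 9.15% of all genes.

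The CCR7 and GZMB comparisons share most of their cells, since only 265 cells had both genes. Split by both, the 3008 cells with GZMB alone had the highest level at 2689 CPM (2658 to 2720), and the 265 cells with both had 2008 CPM (1944 to 2074). The 2140 cells with neither had 1822 CPM (1794 to 1851), and the 1898 cells with CCR7 alone had 1525 CPM (1499 to 1551). The level was thus lower with CCR7 both among GZMB+ and among GZMB- cells, and higher with GZMB both among CCR7+ and among CCR7- cells. The cells with both genes had a median of 6609 UMIs, against 3262 to 4286 in the other groups, and doublets were not removed beyond the limit on genes per cell. Among GZMB- cells alone the CCR7 ratio was -0.26. B cell genes had 124 CPM in CCR7+ and 41.9 in CCR7- cells, plasmacytoid dendritic cell genes 14.8 against 6.37 and NK cell genes 15.0 against 106 CPM, and the part of NK cell genes was not tested. The CCR7 ratio was -0.53 without cells with B cell genes and -0.52 without cells with plasmacytoid dendritic cell genes.

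**Figure D2:**
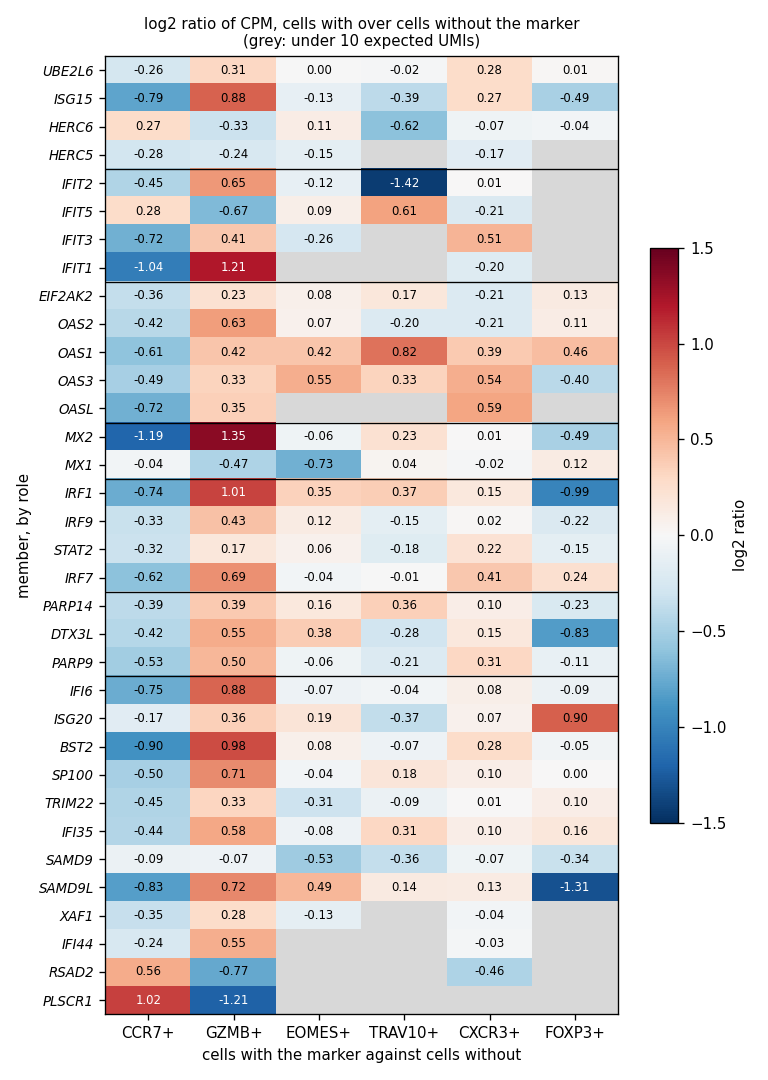
Log2 ratio of CPM in cells with over cells without a UMI of each of the 6 marker genes (columns), for the 34 members ordered by role (rows, separated by lines). Red is higher and blue lower in the cells with the marker, and grey marks members with under 10 expected UMIs. Most members have opposite signs in the CCR7 and GZMB columns, such as MX2 at -1.19 and 1.35, while MX1, HERC5 and SAMD9 are below 0 in both. The other columns are pale but for a few members such as IRF1 and ISG20 with FOXP3.

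EOMES, a factor of memory and type 1 regulatory T cells, was found in 356 cells. Their summed level was 2164 CPM (2092 to 2239) against 2050 CPM (2034 to 2067) in the other cells, a log2 ratio of 0.08 (0.03 to 0.13). Of 29 members with enough UMIs, 0 were at least 1.5-fold higher (3.99% of all 7710 genes tested were) and 1 was lower (5.11% of all genes). That member was MX1, with 22 UMIs or 14.1 CPM in EOMES+ and 23.4 CPM in EOMES- cells (log2 -0.73, -1.41 to -0.11). In thinned cells, however, MX1 was found in 4.08% of EOMES+ and 3.88% of EOMES- cells, so it was not found less often. IRF1 had 396 against 311 CPM (log2 0.35, 0.23 to 0.47). The ratio depended on GZMB: among GZMB- cells the level was 1987 CPM with EOMES and 1657 without, while among GZMB+ cells it was 2361 with and 2603 without. In these cells the pooled ratio thus joined opposite differences. The intervals within each pair did not overlap, but they cover counting error and not the spread between cells. Without cells that had a UMI of several of the 6 markers the pooled ratio was -0.11. A large part of the difference among GZMB- cells lay in IRF1, which had 374 CPM with EOMES and 214 without.

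TRAV10, a receptor alpha segment of invariant natural killer T cells, was found in 247 cells, with 2090 CPM (2006 to 2177) against 2055 CPM in the others (log2 0.02, -0.04 to 0.08). Of 26 members, 2 were at least 1.5-fold higher (2.88% of all 6920 genes tested) and 2 lower (6.29%). OAS1 had 23.5 against 13.3 CPM (log2 0.82, 0.19 to 1.39), and IFIT5 17.2 against 11.3 CPM (log2 0.61, -0.14 to 1.27). IFIT2, with 5 UMIs in TRAV10+ cells, had 4.52 against 12.1 CPM (log2 -1.42, -3.05 to -0.19), and HERC6 12.6 against 19.4 CPM with an interval that included 0. As with EOMES, the level with TRAV10 was higher among GZMB- cells (1912 against 1665 CPM) and lower among GZMB+ cells (2269 against 2604 CPM). Here too, a large part of the difference among GZMB- cells lay in IRF1 (342 against 217 CPM).

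CXCR3, a chemokine receptor of type 1 helper cells that is known to bind interferon-induced chemokines, was found in 1100 cells, with 2203 CPM (2163 to 2243) against 2025 CPM (2008 to 2043). The log2 ratio was 0.12 (0.09 to 0.15). By CXCR3 UMIs the level was 2155 CPM at 1 UMI and 2384 CPM (2285 to 2486) at 2 to 4, and the 4 cells with 5 or more held 114 member UMIs. Of 33 members, 1 was at least 1.5-fold higher (2.35% of all 9812 genes tested) and 0 were lower (3.04%). This member, OASL, had 23 UMIs in CXCR3+ cells and an interval that included 0 (log2 0.59, -0.16 to 1.28). The interval lay above 0 for 9 members and below 0 for 0, counts that have no share over all genes beside them. The 9 were OAS3 (0.54), IFIT3 (0.51), IRF7 (0.41), OAS1 (0.39), UBE2L6 (0.28), BST2 (0.28), ISG15 (0.27), IRF1 (0.15) and IFI6 (0.08), all short of 1.5-fold. In thinned cells, however, IFIT3 was found in 1.495% of CXCR3+ and 1.671% of CXCR3- cells, so it was not found more often. The others of these were. The difference in summed level was seen among GZMB- cells (1873 against 1634 CPM) and not among GZMB+ cells (2593 against 2588 CPM, with overlapping intervals). Without cells that had several of the markers the ratio was -0.034. CXCR3 was found in 15.0% of CD3E+ cells and 9.30% of B gene cells.

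FOXP3, the factor that defines regulatory T cells, was found in 162 cells. Like EOMES and TRAV10, it had a UMI in 0 of the 86 B gene cells, and a limit of 3 counts allows a share of cells with a UMI of up to 3.49%. The summed level was 2026 CPM (1929 to 2127) against 2057 CPM, a log2 ratio of -0.02 (-0.09 to 0.05). It was 0.23 with 2 or more FOXP3 UMIs required, -0.13 in thinned cells, -0.15 without the 5% of cells with most UMIs and -0.23 as a mean over cells, so its direction depended on the setting. Of 24 members with enough UMIs, 1 was at least 1.5-fold higher (4.52% of all 6090 genes tested) and 3 were lower (15.2%). Near-equal sums hid differences in opposite directions. ISG20 had 446 CPM in FOXP3+ and 239 in FOXP3- cells (log2 0.90, 0.74 to 1.05), and IRF1 had 160.2 against 319 CPM (log2 -0.99, -1.26 to -0.74). SAMD9L had 7.45 against 18.5 CPM on 6 UMIs in FOXP3+ cells (log2 -1.31, -2.76 to -0.18), and the interval of DTX3L included 0. The FOXP3+ cells were mostly CCR7+ (71.0%, against 28.6% of the others) and seldom GZMB+ (11.1% against 45.5%). Among GZMB- cells they had a higher summed level of 1990 CPM against 1659 CPM, each pooled over cells. Much of that difference lay in ISG20 alone (457 against 209 CPM), while IRF1 went the other way (132 against 225 CPM). The median share per cell was 0.139% in all FOXP3+ cells and 0.140% in all GZMB- cells, and it was not taken for FOXP3+ GZMB- cells alone. Of the 1631 member UMIs of FOXP3+ cells, 148 lay in the 5 cells with 5 or more FOXP3 UMIs. The 106 cells with 1 FOXP3 UMI had 1815 CPM. Among GZMB+ cells the 18 with FOXP3 had a lower level, 2233 CPM (1971 to 2520) against 2592 CPM (2564 to 2621).

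**Figure D3:**
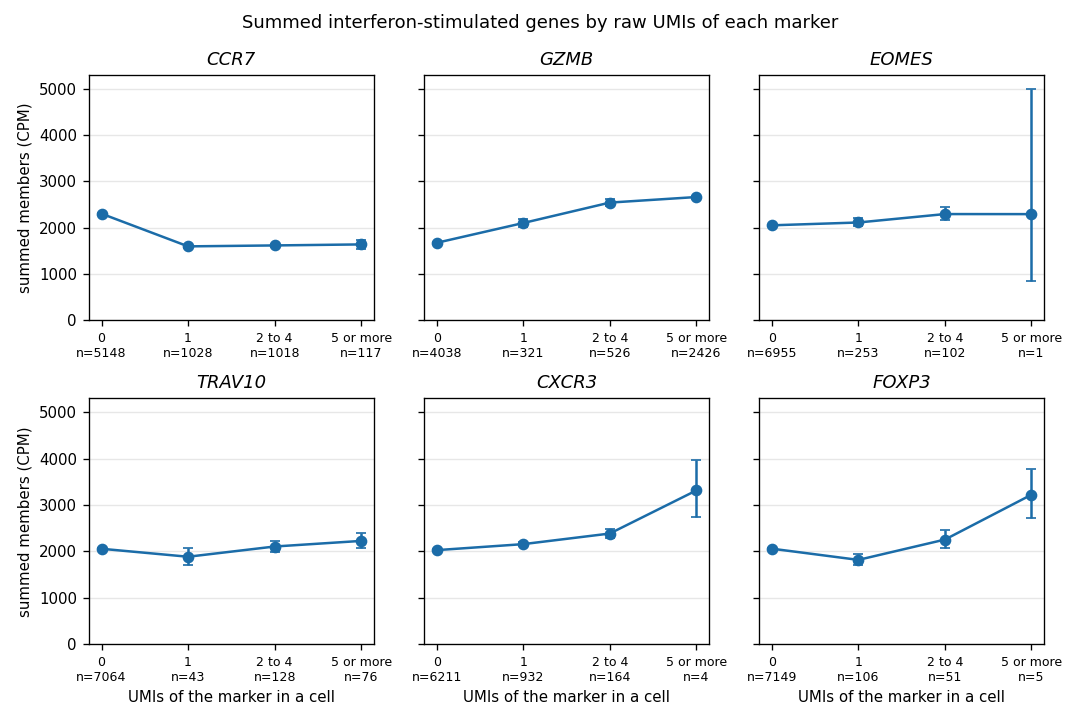
Summed level of the members in CPM (vertical axis, from 0) by raw UMIs of each marker in a cell (horizontal axis, with the number of cells n), with exact Poisson intervals. The level climbs with GZMB from 1672 to 2661 CPM, drops from 2301 CPM at 0 CCR7 UMIs to about the same level in every CCR7+ group, and the right-hand points of EOMES, CXCR3 and FOXP3 rest on 1, 4 and 5 cells.

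Other genes of the pathway gave a frame for these values. Of the ligands, IFNG had 223 UMIs (7.41 CPM) and IFNL1 78, while IFNB1 and IFNK had no UMI among 30113654, where a limit of 3 counts allows up to 0.0996 CPM and the exact Poisson interval ends at 0.122 CPM. IFNG, which encodes interferon gamma, had 15.2 CPM in GZMB+ and 1.83 CPM in GZMB- cells (log2 3.05, 2.51 to 3.64). Of the receptor genes, IFNAR2 had 112 and IFNAR1 25.6 CPM, and IFNGR2 was lower in GZMB+ cells (7.70 against 42.5 CPM). The kinase JAK1 had 296 CPM. Over the whole list of 79 other pathway genes, 64 had a row and 57 were tested for GZMB, of which 13 (22.8%) were at least 1.5-fold higher and 3 (5.26%) lower, against 18.8% and 10.8% of all genes. The median log2 ratio was 0.35, against 0.19 for all genes tested. Of the 28 tested genes listed as other induced genes, 9 (32.1%) were at least 1.5-fold higher and 1 (3.57%) was lower. Those higher included IFI27 (161 against 69.2 CPM) and PSMB9, a subunit of the immunoproteasome (485 against 242 CPM). The inhibitor USP18, which removes ISG15 from proteins, was also higher (21.98 against 7.54 CPM). SOCS3, another inhibitor of the pathway, was lower with GZMB (13.4 against 46.8 CPM). For CCR7, 4 of the 57 (7.02%) were higher and 15 (26.3%) lower, against 8.01% and 14.0% of all genes, with a median of -0.25 against -0.15.

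Co-detection was measured as the number of thinned cells with a UMI of both members of a pair, divided by the number that the product of their shares gives. Of the 561 pairs, 406 had at least 5 expected cells. Their median ratio was 1.18. It was above 1 in 350 pairs, above 1.5 in 83 and above 2 in 26. The counting interval lay above 1 in 113 pairs and below 1 in 0 pairs. Members were therefore found together more often than their shares give, to a modest degree in most pairs. Pairs of other genes were not counted, so whether this excess is particular to the members was not tested. Since GZMB+ cells held more of most members, the expected number was also taken within GZMB+ and GZMB- cells, a choice made after seeing the data, and the median was then 1.15.

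The excess was largest between sparse members. The 95 pairs of sparse members had a median ratio of 1.55, the 245 pairs of a sparse and a wide member 1.19, and the 66 pairs of wide members 1.10. The ratio of a pair cannot exceed 1 divided by the larger of its shares, so pairs with a wide member have a lower ceiling. The part of this ceiling in the order of the medians was not tested. ISG15 and MX1 were found together in 57 cells where 14.0 were expected (ratio 4.08, 3.09 to 5.28), and within the GZMB classes the ratio was 4.19. IFIT2 with OAS2 had 18 cells against 5.46 (3.30), ISG15 with XAF1 16 against 5.38 (2.97), OAS1 with MX1 22 against 7.48 (2.94), and MX1 with IRF7 38 against 13.5 (2.82). In each of these pairs the genes lie on different chromosomes. ISG15 had the highest median over its pairs (1.58 over 28 pairs), followed by MX1 (1.48 over 25), OAS2 (1.43 over 25) and IRF7 (1.43 over 28). IFIT5 (0.98 over 22 pairs) and PLSCR1 (0.99 over 4) had no excess, and SAMD9 (1.04) and IFI44 (1.06) little. IRF1, the second most abundant member, had a median of 1.08 and 0 pairs above 1.5. It was found in 41.9% of thinned cells, so its ratios have a low ceiling.

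**Figure D4:**
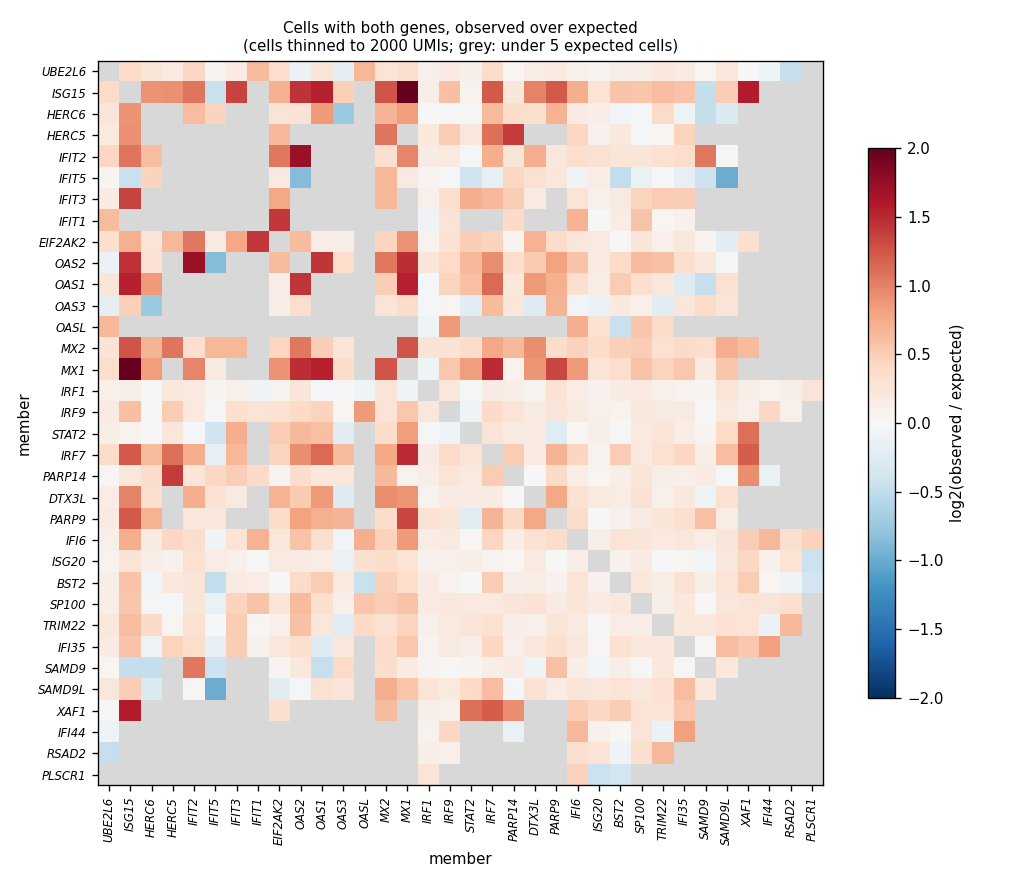
Log2 of observed over expected number of thinned cells with both members, for every pair with at least 5 expected cells (grey: fewer, and the diagonal), members in the order of their roles on both axes, with the colour scale ending at -2 and 2. The darkest cells join ISG15, MX1, OAS1, OAS2, IRF7, IFIT2 and XAF1, up to 4.08 for ISG15 with MX1. The rows of IRF1 and ISG20, whose ratios have a low ceiling, stay pale, and that of IFIT5 holds 1 pair above 1.5.

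Pairs of sparse members could arise only in the 897 thinned cells (12.9%) that had 2 or more of them. Of the 6935 thinned cells, 4007 had none of the 22 sparse members, 2031 had 1, 620 had 2, and 99 (1.43%) had 4 or more. The product of the shares, taken within the GZMB classes, gives 21.4 cells with 4 or more. For 5 or more the values were 32 cells observed and 2.20 expected, and 1 cell had 11. The list of sparse members and the limit of 4 were chosen after the values were seen, so these counts are a description. The 99 cells held 12.5% of all thinned UMIs of the sparse members. The other 87.5% lay in cells with 3 or fewer.

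**Figure D5:**
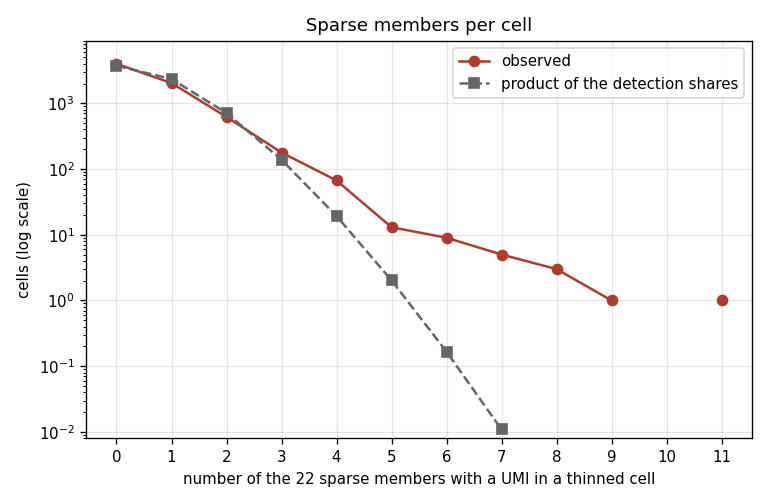
Number of thinned cells (log axis) by how many of the 22 sparse members had a UMI in the cell, as observed (circles) and as the product of the detection shares within GZMB+ and GZMB- cells gives (squares, drawn down to 0.01 cells). The curves lie close up to 3 members, and from 4 members on the observed numbers exceed the expected, with 67 against 19.2 cells at 4 and 13 against 2.02 at 5.

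The 99 cells, like the others, were chosen by a UMI of CD3E, so a summed level of T cell genes does not tell their type. The 4 T cell genes, CD3E among them, had 3010 CPM in the 99 cells against 3071 in the others. Median depth was 3673 UMIs against 3737.5. GZMB was found in 54.5% (exact binomial interval 44.2% to 64.6%) against 44.5% of the others, CCR7 in 25.3% against 30.2%, and CXCR3 in 10.1% (4.95% to 17.8%) against 15.5%. FOXP3 had a UMI in 0 of the 99, and a limit of 3 counts allows a share of cells with a UMI of up to 3.03% (upper end of the exact binomial interval 3.66%). EOMES and TRAV10 were found in 6.06% and 4.04%, against 4.93% and 3.41%. For all 6 genes the interval of this unthinned share included the share in the other cells, for GZMB only narrowly. After thinning, the depth at which the 99 cells were chosen, GZMB was found in 52.5% of them and 41.4% of the others. The cells with many sparse members thus occurred both with and without GZMB.

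Genes that did not choose these cells were higher in them as well. Of the 12 wide members, 9 had enough UMIs and 8 were at least 1.5-fold higher, where 5.83% of the 2196 genes tested were. IFI6 had 1384 CPM against 314, SP100 409 against 161 and BST2 323 against 179 CPM. IRF1 was the tested one short of 1.5-fold, with 379 against 340.04 CPM. Of the other pathway genes, 22 were tested and 0 were at least 1.5-fold lower, a count that has no share over all genes beside it. At least 1.5-fold higher were 9, where 5.83% of all genes tested were. They included IFI27 (434 against 108 CPM; log2 2.01), RNF213, a large ubiquitin ligase (434 against 159 CPM; log2 1.45), and GBP3, a guanylate-binding protein (167 against 68.6 CPM; log2 1.28). The RNA sensor gene DDX58 had 11 UMIs in them (55.6 against 6.73 CPM; log2 3.05), too few for the count of tested genes. IFNG did not differ beyond its counting error (2 UMIs; 10.1 against 8.12 CPM).

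Genes of other cell types moved with this group in single cells. Plasmacytoid dendritic cell genes had 106 CPM in the 99 cells against 4.24 in the others, with 21 UMIs in 2 cells and CLEC4C and IL3RA at 0. All 15 IRF8 UMIs lay in 1 cell. Monocyte genes had 6 UMIs in 2 cells, with VCAN, S100A8, S100A9 and FCN1 at 0, and B cell genes had 70.7 against 40.6 CPM, in 6 cells. Without the cells that had 3 or more UMIs of B cell or plasmacytoid dendritic cell genes, 97 of 6841 cells (1.42%) had 4 or more sparse members.

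The antibody tags gave an axis that the RNA did not use. The CD3E+ cells were split into 4 groups of about equal size by CD4 tag. The summed level went from 2325 CPM (2286 to 2365) in the lowest group to 1924 CPM (1897 to 1951) in the highest, and the share of GZMB+ cells from 68.7% to 30.6%. Within GZMB+ cells the 3 lower groups had 2687, 2691 and 2697 CPM and the highest 2329 CPM. Within GZMB- cells the level lay between 1601 CPM in the lowest and 1710 CPM (1679 to 1741) in the highest group. The pooled fall with the CD4 tag was thus not seen among GZMB- cells. By CD8 tag the level was 1949 CPM in the lowest group, 2206 and 2118 in the middle groups and 1976 in the highest. The share of GZMB+ cells in these groups was 36.1%, 52.4%, 50.3% and 40.3%. Within GZMB+ cells the levels were 2725, 2701, 2638 and 2382 CPM, without a peak in the middle groups. Within GZMB- cells they were 1569, 1748, 1671 and 1703 CPM. Depth moved with the level as well: over 4 such groups by total UMIs it went from 2530.0 CPM to 1859 CPM, with 59.3% and 31.4% of cells GZMB+. In cells thinned to 2000 UMIs the GZMB ratio was 0.67, but thinning leaves the expected share of each cell as it was. The part of depth in the GZMB ratio was thus not tested.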

How the data were processed

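The authors deposited 1 matrix of UMI counts, not normalized, with genes and the CD4 and CD8 tags as features. They aligned reads to Mmul_10 using STAR 2.5.1b inside Cell Ranger 3.1.0. Which annotation release they used was not stated. The limits of the study on cells (200 to 4000 genes, at most 20% mitochondrial UMIs, counting 13 named genes and 2 unnamed features) were applied, and CD3E+ cells were kept. The 2 libraries came from 1 animal, so no test was made. Counts were summed over the cells of a group and divided by their gene UMIs (CPM). Intervals are 95%: exact Poisson, exact binomial (Clopper-Pearson), and for ratios the binomial split of both counts. A gene was compared when at least 10 UMIs were expected in the smaller group. Python 3.11.15, numpy 2.4.6, scipy 1.17.1, pandas 2.3.3 and matplotlib 3.10.9 were used, with seed 1 for thinning, and the ratio and thinning code was tested on simulated data. No doublet caller was run, and the limit of 4000 genes is the only step against doublets.

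Barcodes number 7923, all distinct, with 32297887 gene UMIs. Positions and promoters come from the RefSeq annotation of Mmul_10, taking a curated transcript before a predicted one. The named genes are all members, the 6 marker genes, CD3E and a list of other interferon pathway genes. The members and all lists were chosen with earlier results of these data known. IFIT genes, OAS genes, MX genes and SAMD9 genes have near relatives whose shared reads the counting may have left out, and PARP9 and DTX3L overlap in the annotation. The alternatives tried were other limits on mitochondrial UMIs, any CD3 gene, thinned cells, means over cells, leaving out cells with B cell genes, the deepest cells, cells with several markers or the 3 leading members, at least 2 marker UMIs, a fold of 2, at least 5 expected UMIs and unthinned co-detection. Chosen after seeing the data were the scaling outside ribosomal protein and mitochondrial genes, the values within GZMB classes and 10 groups of depth, and leaving out cells with plasmacytoid dendritic cell genes. Values of 1 gene of the pathway list are not reported here.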

Additional observations from a re-analysis of the deposited data

How the results depend on the processing

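No paired analysis was possible because there was 1 animal and 1 RNA library. For 14 results, 108 values under an alternative were computed, and 68 stayed within the counting interval of the reported value, for counts of members within 1.5 times of it, or for the median co-detection ratio between the quartiles over pairs. The signs of the CCR7 and GZMB ratios were the same under every alternative run. The summed level moved to 2078 CPM at no more than 10% mitochondrial UMIs, 2110 CPM in thinned cells, 2152 CPM as a mean over cells, 1173 CPM without IFI6, IRF1 and ISG20, and 3131 CPM when scaled outside ribosomal protein and mitochondrial genes. The CCR7 ratio moved to -0.57 as a mean over cells, -0.56 without the 5% of cells with most UMIs, -0.47 without the 3 leading members, -0.62 without cells with several markers, -0.37 with the other scaling and -0.26 within GZMB- cells. The GZMB ratio moved to 0.67 in thinned cells, 0.68 without the deepest cells, 0.52 without the 3 leading members, 0.66 at 2 or more GZMB UMIs, 0.71 without cells with several markers and 0.45 with the other scaling. Leaving out cells with several markers takes all GZMB+ cells out of the CCR7+ group and all CCR7+ cells out of the GZMB+ group. From the CCR7- and GZMB- groups it takes only those cells that carry several of the markers. The part of this construction in the larger CCR7 and GZMB ratios at that setting was not tested.

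The ratios of the other markers were small and depended on the setting. EOMES moved to 0.012 without the 3 leading members, 0.16 at 2 or more UMIs and 0.26 within GZMB- cells, and turned to -0.11 without cells with several markers. CXCR3 moved to 0.16 in thinned cells, 0.26 at 2 or more UMIs and 0.20 within GZMB- cells, and turned to -0.034 without cells with several markers. That setting by construction takes all GZMB+ cells out of the marker group and leaves those with GZMB as their single marker in the other. TRAV10 moved to 0.20 within GZMB- cells. FOXP3 moved to -0.13 in thinned cells, -0.23 as a mean over cells, -0.15 without the deepest cells, 0.23 at 2 or more UMIs, 0.10 without cells with several markers and 0.26 within GZMB- cells, so its direction is not settled and the cause was not tested. At a fold of 2 the members past it were 3 for CCR7 (12 at 1.5-fold), 4 for GZMB (14), 0 for EOMES (1), 1 for TRAV10 (4), 0 for CXCR3 (1) and 1 for FOXP3 (4). At 5 or more expected UMIs they were 2 for CXCR3 and 6 each for TRAV10 and FOXP3, and with the other scaling 0 for CXCR3, 10 for GZMB and 9 for CCR7. These counts join higher and lower members. No share over all genes stands beside those at a fold of 2 or at 5 expected UMIs, so they show only how the number moved. The median co-detection ratio was 1.26 in unthinned cells and 1.15 when expected within 10 groups of depth. With 1 animal, none of these values says how animals vary, and sparse members such as PLSCR1 limit what could be seen.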

Other observations

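In the 86 B gene cells the members had another order although their sum was close to that of the CD3E+ cells. SP100 was found in 67.4% of them and had 295 CPM, against 44.5% and 162 CPM in CD3E+ cells. HERC5, the ligase that attaches ISG15, was found in 19.8% with 52.9 CPM, against 2.90% and 7.80 CPM. ISG15 itself was found in 2 of the 86 cells (5.04 CPM), PARP14 had 10.1 CPM against 43.5 CPM, and BST2 73.1 against 175 CPM. IFIT1 and IFI44 had no UMI in the 86 cells, where a limit of 3 counts allows a share of cells with a UMI of up to 3.49%. These cells were chosen by B cell genes, came from 1 animal, and were not tested against the others.

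Among the 322 barcodes outside the limits on cells the summed level was 1799 CPM (1727 to 1874), and among the 290 kept cells without a CD3E UMI it was 2199 CPM (2103 to 2299).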
